A study of Mus musculus with 20 samples.

Results

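The unfolded protein response (UPR) and the integrated stress response (ISR) were followed through 36 genes of the 56748 in the deposited tables, in all 20 RNA-seq libraries of the series. The genes were listed by name because chaperones of the endoplasmic reticulum (ER) led the interaction of Akr1a1 knockout (KO) and stimulation, so the Akr1a1 KO contrasts that the list rests on are described without a test. The series asked how transcripts of macrophages change on classical activation, and how this depends on iNOS, the enzyme that makes nitric oxide, and on the reductase Akr1a1. In the iNOS experiment, 12 libraries (3 in each of 4 groups) came from wildtype (WT) or iNOS KO cells, and in the Akr1a1 experiment 8 libraries (2 in each of 4 groups) came from WT or Akr1a1 KO RAW264.7 cells, a mouse macrophage line. Cells were unstimulated or were given LPS (50 ng/mL) and IFNγ for 48 h, after which the stimulants were washed off, and by the labels IFNγ was at 30 ng/mL for bone marrow-derived macrophages (BMDM) and at 10 ng/mL for RAW264.7 cells. The Akr1a1 KO cells were made by CRISPR-Cas9 and grown from sorted single cells, and the methods speak of independent clonal replicates. The labels name the cells of the iNOS experiment as BMDM of WT or iNOS KO C57BL/6J mice, males or females, 6 to 12 weeks old, grown with M-CSF, while the methods give the iNOS KO mice as B6.129P2-Nos2tm1Lau/J. The methods of the study place that RNA-seq experiment in RAW264.7 cells, so the cell type was not settled here. For BMDM, the methods pooled marrow by genotype, and no label ties a library to an animal, so p-values measure only the spread between these libraries, which may be technical. The replicate B libraries of unstimulated WT and unstimulated Akr1a1 KO RAW264.7 cells carry the word Stimulated in their titles but not in their treatment field or library names, and were taken as unstimulated.

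The ER folds secreted and membrane proteins with the help of chaperones, lectins and thiol oxidoreductases, and unfolded protein in its lumen activates the sensors IRE1α, PERK and ATF6. IRE1α (Ern1) splices Xbp1 mRNA, ATF6 is cleaved to a transcription factor, and both raise chaperones and genes of ER-associated degradation (ERAD), while PERK (Eif2ak3) phosphorylates eIF2α and so favours translation of Atf4, the step it shares with the other kinases of the ISR. ATF4 and its partner CHOP (Ddit3) induce genes of amino acid supply, of redox control and of feedback on eIF2α. Activated macrophages secrete large amounts of cytokines, and both arms are known to be engaged by inflammatory stimuli. By role the list held 9 chaperones and co-chaperones, 2 lectin chaperones, 5 thiol oxidoreductases, 4 genes of sensing (the sensors Ern1, Atf6 and Eif2ak3 with Xbp1), 7 ISR factors and ATF4 or CHOP targets, 7 ERAD genes and 2 subunits of the SEC61 translocon. Counts per gene cannot show the splicing of Xbp1 or the phosphorylation or cleavage of the sensors.

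Many of these genes carry known control elements before their start, and the promoters shown here are those of the members on which the results below turn. RefSeq entries (GRCm38.p6, from 250 bases before to 50 bases after the start) were found for 31 of the 36 members, and Hyou1, Manf, Atf6, Derl1 and Sec61a1 had none. Both strands were searched for the ER stress response element ERSE (CCAAT, 9 bases of any kind, CCACG), for ERSE-II (ATTGG, any base, CCACG), for a core of the UPR element (TGACGTGG) and for the C/EBP-ATF response element CARE (TGATGNAA), the site of ATF4 dimers. No pair of these motifs overlapped in the promoters below. The ERSE was found in 10 of the 31 (32.3%), against 0.137% of 27025 genes with a window of that length. They were Hspa5, Hsp90b1, Dnajc3, Creld2, Calr, Canx, Pdia6, Ero1lb, Syvn1 and Derl3, and Hsp90b1 held it on each strand. ERSE-II was found in Dnajb11 and Herpud1 (0.0444% of all genes), and CARE in 5 of the 31 (16.1%, against 4.51%), Atf3, Trib3, Chac1, Asns and Herpud1. The UPR element core was in none of the 31 windows and in 0.714% of all genes, and 15 members held none of the 4 motifs in these windows. The 250 bases before the start are printed 5′ to 3′ along the strand of the gene, with the fixed letters of a motif in capitals. Hspa5 (chr2:34771840-34772089, plus strand), Hsp90b1 (chr10:86705445-86705694, minus) and Pdia6 (chr12:17266339-17266588, plus) show the ERSE, Asns (chr6:7693210-7693459, minus) the CARE, and Herpud1 (chr8:94386179-94386428, plus) both a CARE, on the opposite strand, and ERSE-II.
Hspa5: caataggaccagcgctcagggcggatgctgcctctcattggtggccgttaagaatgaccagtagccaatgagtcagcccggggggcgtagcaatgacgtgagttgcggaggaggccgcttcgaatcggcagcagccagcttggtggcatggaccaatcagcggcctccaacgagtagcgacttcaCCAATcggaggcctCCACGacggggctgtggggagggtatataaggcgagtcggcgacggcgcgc
Hsp90b1: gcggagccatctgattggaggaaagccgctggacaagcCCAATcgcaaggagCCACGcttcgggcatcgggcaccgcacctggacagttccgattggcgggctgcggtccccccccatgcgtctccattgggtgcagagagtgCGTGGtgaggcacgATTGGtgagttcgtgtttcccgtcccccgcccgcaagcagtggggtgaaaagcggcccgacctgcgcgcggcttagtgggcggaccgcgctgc
Pdia6: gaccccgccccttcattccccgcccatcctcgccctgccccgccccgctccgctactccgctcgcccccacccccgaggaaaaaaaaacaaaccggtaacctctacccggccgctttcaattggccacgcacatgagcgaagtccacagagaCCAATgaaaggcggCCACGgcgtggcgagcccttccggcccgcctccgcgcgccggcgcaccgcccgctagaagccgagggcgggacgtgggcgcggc
Asns: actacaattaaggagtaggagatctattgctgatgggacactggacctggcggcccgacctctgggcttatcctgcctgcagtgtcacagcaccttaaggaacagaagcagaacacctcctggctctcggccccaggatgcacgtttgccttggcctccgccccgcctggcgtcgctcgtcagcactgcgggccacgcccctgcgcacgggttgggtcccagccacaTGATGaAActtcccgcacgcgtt
Herpud1: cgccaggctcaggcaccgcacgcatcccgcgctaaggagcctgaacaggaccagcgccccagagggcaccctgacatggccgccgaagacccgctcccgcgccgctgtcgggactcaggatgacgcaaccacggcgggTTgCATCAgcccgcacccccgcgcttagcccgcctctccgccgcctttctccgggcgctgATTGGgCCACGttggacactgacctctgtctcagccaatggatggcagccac

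The libraries held 15072109 to 18878107 counts in the iNOS experiment and 11876719 to 44583327 in the Akr1a1 experiment, and levels below are in CPM, that is counts divided by TMM library sizes set within each experiment. Nos2, the gene of iNOS, was between 10370 and 11530 CPM in stimulated WT libraries of the iNOS experiment, between 870.5 and 911.8 in stimulated iNOS KO libraries and at 0 in unstimulated iNOS KO libraries. Akr1a1 was at 426.9 to 674.7 CPM in WT RAW264.7 libraries and at 206, 21.85, 370.4 and 211.8 in the Akr1a1 KO libraries, which thus retained part of the transcript. Stimulated iNOS KO replicate B stood apart from replicates A and C (chi-square per degree of freedom 28.8 and 36.8, against 2.65 to 7.74 for the other pairs of that experiment), and all pairs of RAW264.7 replicates were far apart (15.5 to 68.6, highest for stimulated WT). Mitochondrially encoded transcripts fell with stimulation, from 1.66 to 1.89% of counts to 0.741 to 1.22% in the iNOS experiment and from 2.47 to 2.89% to 1.09 to 1.57% in RAW264.7 cells. Of 8 macrophage markers, all but Mertk had counts in every library. Mertk was at 5.1 to 6.6 CPM in stimulated WT libraries of the iNOS experiment. It was at most 0.955 CPM in every other library and at 0 in unstimulated Akr1a1 KO libraries. The summed level of the 8 was 7210 to 7563 CPM in unstimulated and 6581 to 7360 in stimulated WT, and 4952 to 5245 in unstimulated and 9968 to 10410 in stimulated iNOS KO libraries. In RAW264.7 cells it went from 3952 to 4484 CPM before to 9111 to 9954 after stimulation in WT, and from 2903 to 3161 to between 3335 and 7008 in Akr1a1 KO libraries. Of 7 neutrophil markers the sum rose with stimulation from at most 1.17 CPM to 35.5 to 62.1 in the iNOS experiment and from at most 0.624 to between 121 and 420 in RAW264.7 cells. Nearly all of it was S100a8, with S100a9 and Ltf at 0 in all stimulated libraries of the iNOS experiment. Of 5 plasma cell markers the sum was 128 to 140 CPM in unstimulated and 447 to 500 in stimulated WT libraries of the iNOS experiment, against 247 to 273 in stimulated iNOS KO libraries. Nearly all of it was Sdc1 and Prdm1, with Jchain at 0 throughout that experiment. Of 6 dendritic cell markers the sum, mostly Itgax, was 92.7 to 106 CPM in stimulated WT and 29.0 to 31.3 in stimulated iNOS KO libraries. The 6 fibroblast markers summed to at most 16.6 and 6 lymphocyte markers to at most 0.692 CPM in all libraries. The part of these markers and libraries in the results was not tested. In bulk RNA, a change in how many cells of a type are present and a change in RNA per cell cannot be told apart.

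All 36 members passed the minimum of 10 counts in both experiments, although Derl3, a derlin of ERAD, stayed at or below 1.0 CPM in every library. Compared per kilobase of gene length, the folding machinery was the most abundant in unstimulated WT cells of the iNOS experiment. P4hb, a protein disulfide isomerase, had a mean level of 416 CPM per kb, Calr 392, Hspa5 345, Pdia3 239.6 and Hsp90b1 178. Of the sensors, Eif2ak3 at 4.04 and Ern1 at 6.00 CPM per kb were at the low end, next to Ddit3 at 6.36, while Atf6 was at 22.8. The same 5 folding genes led in unstimulated WT RAW264.7 cells, where P4hb was at 503, Calr at 249.8, Pdia3 at 228, Hspa5 at 222 and Hsp90b1 at 201 CPM per kb. Among the members other than Derl3, the ratio of the highest to the lowest of the 8 group means ran from 1.60 for Atf6 to 24.5 for Atf3, and was 20.3 for Ddit3 and 19.3 for Ppp1r15a. The members together took 1.15 to 1.18% of counts in unstimulated and 0.974 to 0.998% in stimulated WT libraries of the iNOS experiment, and 1.61 to 1.73% in unstimulated Akr1a1 KO against 0.816 to 0.917% in unstimulated WT RAW264.7 libraries. These are shares of raw counts, without the TMM scaling behind CPM, and need not change in the direction of the members' summed CPM.

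**Figure D1:**
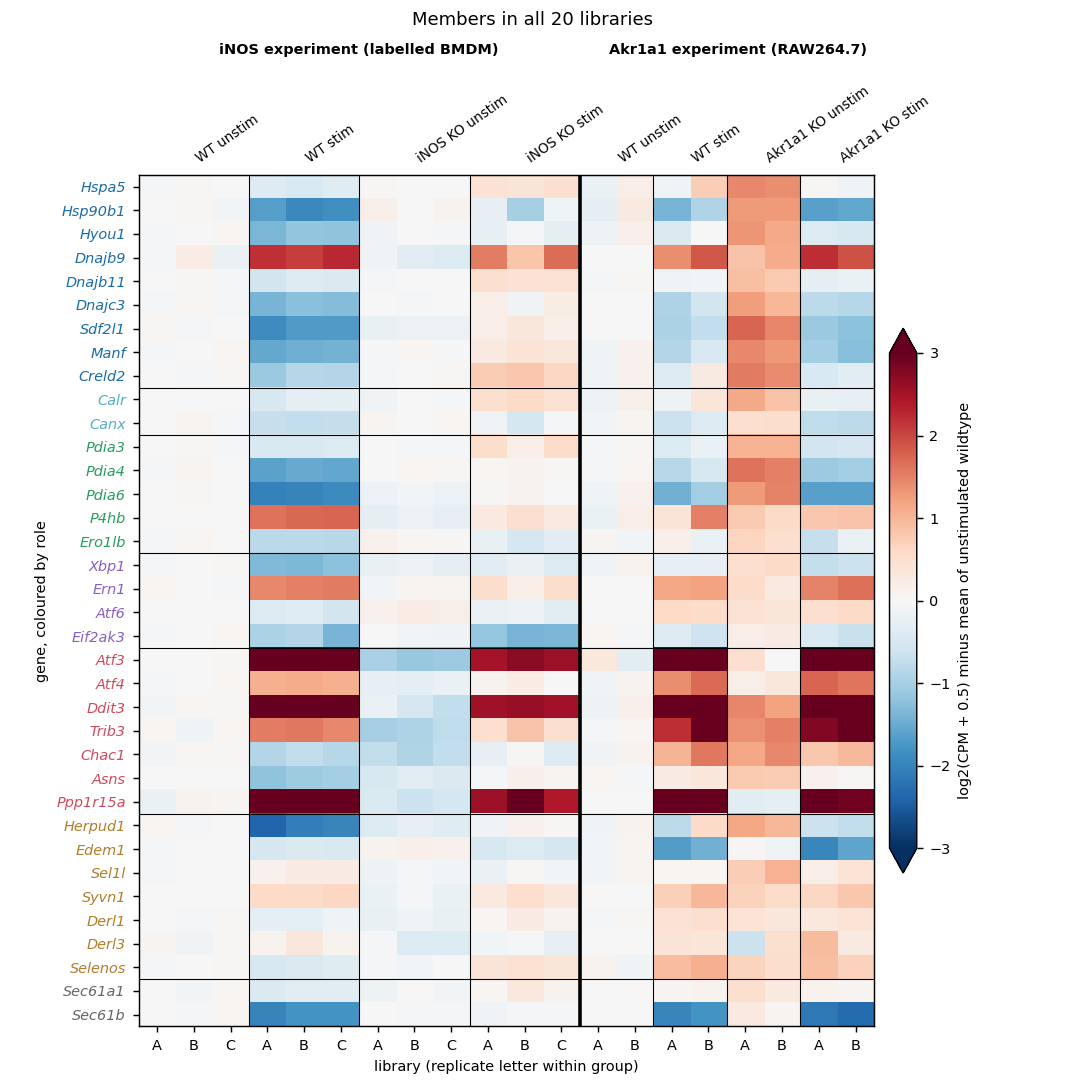
Level of each of the 36 members (rows, coloured by role) in each of the 20 libraries (columns), as log2(CPM + 0.5) minus the mean of unstimulated WT libraries of the same experiment, with colours limited to 3 in either direction. Most chaperones and oxidoreductases are blue in stimulated WT and pale in stimulated iNOS KO libraries, they are red in unstimulated Akr1a1 KO libraries, and Atf3, Ddit3 and Ppp1r15a are dark red in all stimulated libraries.

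The first comparison asked what stimulation did to these genes in WT cells of the iNOS experiment. Most genes of the folding machinery fell, while the transcription factors and feedback genes of the ISR rose. P4hb, the most abundant of the folding genes per kilobase in unstimulated WT cells, rose. The falls of single genes therefore do not show a fall in the summed level of the machinery. By edgeR's quasi-likelihood test at an adjusted p under 0.05, 10 members rose and 25 fell, where 32.4% of the 18691 genes tested rose and 28.5% fell (60.9% called in all). The median log2 fold change was -0.45 for the members and 0.07 over all tested genes. In stimulated iNOS KO cells against unstimulated iNOS KO cells the balance was the opposite, with 23 members up and 6 down (27.3% and 24.6% of all genes, 51.9% in all) and a median of 0.38. Set side by side in the stimulated state, iNOS KO cells had 23 members above and 10 below WT cells (24.2% of all genes each way, 48.4% in all). The difference between the responses was itself tested as the interaction of genotype and stimulation. It was positive for 22 members and negative for 4 (20.0% and 15.4% of all genes, 35.4% in all), where positive means a response less downward, or more upward, in iNOS KO cells. These comparisons share groups of libraries, so their values are given side by side and are not independent of each other.

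Among the chaperones, 8 of 9 fell with stimulation in WT cells, and Dnajb9 alone rose. Hspa5 (BiP, the main ER Hsp70 and the brake on the sensors; ENSMUSG00000026864, chromosome 2, 34661982 to 34667559 as the tables list it, which name no build and mostly differ from the positions of the promoters' build) was at 1435, 1494 and 1450.4 CPM in unstimulated WT, 1109.9, 1070.2 and 1141 in stimulated WT, 1492, 1448 and 1455 in unstimulated iNOS KO and 1971, 1917 and 2073 in stimulated iNOS KO libraries. Every stimulated WT library lay below, and every stimulated iNOS KO library above, all unstimulated libraries. The log2 fold change of stimulation was -0.40 ± 0.052 (SE, n = 3 per group, edgeR adjusted p = 3.28e-06) in WT and 0.44 ± 0.052 (adjusted p = 1.7e-06) in iNOS KO cells, with an interaction of 0.84 (adjusted p = 1.05e-07). Hsp90b1 (GRP94, the ER Hsp90; ENSMUSG00000020048, chromosome 10, 86526073 to 86541373) was at 728, 753 and 678 CPM in unstimulated WT and 230.1, 189 and 200.1 in stimulated WT libraries, and at 811, 729 and 772 in unstimulated and 610.0, 362 and 662 in stimulated iNOS KO libraries. It fell in both genotypes without overlap, by 1.80 ± 0.16 on the log2 scale in WT (edgeR adjusted p = 2e-08) and by 0.50 ± 0.15 in iNOS KO cells (adjusted p = 0.00995), with its lowest iNOS KO value in the replicate B that stood apart. The difference in response was 1.30 ± 0.21 (adjusted p = 0.000121).

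Sdf2l1, a partner of BiP and its J-domain co-chaperones (ENSMUSG00000022769, chromosome 16, 16948002 to 16950247), had the largest difference between genotypes in this role. Its values were 151, 144 and 149 CPM in unstimulated WT, 39.5, 45.4 and 45.1 in stimulated WT, 127, 131 and 130.2 in unstimulated iNOS KO and 169.7, 186 and 169 in stimulated iNOS KO libraries. Stimulated WT libraries were the lowest and stimulated iNOS KO libraries the highest, and none of the 4 groups overlapped. The log2 fold change was -1.77 ± 0.071 in WT and 0.43 ± 0.068 in iNOS KO cells, and the interaction was 2.21 (edgeR adjusted p = 2.78e-11). Manf, a secreted ER protein that binds BiP, had log2 fold changes of -1.48 and 0.36 in WT and iNOS KO cells, though in the listed positions it shares 6511 bases with Rbm15b on its own strand and 42681 with Dcaf1 on the other, so its counts are uncertain. Dnajc3 (P58IPK, a co-chaperone and inhibitor of PERK) had -1.32 and 0.12, Hyou1 (an ER Hsp110) -1.26 and -0.13, Creld2 -0.96 and 0.73, and Dnajb11 (ERdj3) -0.45 and 0.46. In WT cells all of these falls were called. In iNOS KO cells Manf, Creld2, Dnajb11, Sdf2l1 and Hspa5 rose, while Dnajc3 (adjusted p = 0.224) and Hyou1 (adjusted p = 0.14) did not pass the test. Without stimulated iNOS KO replicate B, Dnajc3 rose (0.22, edgeR adjusted p = 0.00257) and Hyou1 fell (-0.21, adjusted p = 0.00304). Dnajb9 (ERdj4, which restrains IRE1α) rose by 2.19 ± 0.17 in WT and 1.70 ± 0.17 in iNOS KO cells, and its interaction of -0.50 did not pass the test (edgeR adjusted p = 0.122). That interaction passed with no filter on counts (-0.49, adjusted p = 0.00433) and without stimulated iNOS KO replicate C (-0.66, adjusted p = 0.0305). The other 8 chaperones all had a positive interaction that passed the test, between 0.84 and 2.21.

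The lectin chaperones Calr and Canx, which hold glycoproteins through their sugars, both fell in stimulated WT cells and both stood higher in iNOS KO than in WT cells after stimulation. Calr was at 815, 927 and 934 CPM in stimulated WT against 1567, 1702 and 1545 in stimulated iNOS KO libraries, a log2 difference of 0.85 ± 0.063. Canx was at 388, 379 and 383 against 588, 434 and 617, a difference of 0.51 ± 0.095, and it fell in iNOS KO cells too (log2 fold change -0.25, edgeR adjusted p = 0.0356), a call lost without any library of unstimulated iNOS KO cells and without stimulated iNOS KO replicate B, where it was -0.11 (adjusted p = 0.0809).

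The thiol oxidoreductases, which form and rearrange disulfide bonds, fell in stimulated WT cells, 4 of 5, with P4hb as the exception. Pdia6 (ENSMUSG00000020571, chromosome 12, 17316546 to 17334771) was at 400.2, 412 and 402 CPM in unstimulated WT, 99.1, 100.5 and 107 in stimulated WT, 358, 381 and 360.2 in unstimulated iNOS KO and 415, 437 and 403 in stimulated iNOS KO libraries. The stimulated WT libraries stood far below all others, and the other groups lay between 357.9 and 437.2 CPM. The fall in WT cells was 1.99 ± 0.060 on the log2 scale, while iNOS KO cells showed 0.19 ± 0.057, and the interaction was 2.18 (edgeR adjusted p = 3.72e-12). Pdia4 fell by 1.57 ± 0.066 in WT cells and showed 0.03 ± 0.062 in iNOS KO cells (adjusted p = 0.761), and Pdia3, the isomerase that works with the lectins, had -0.45 and 0.47. Ero1lb, an oxidase that recharges the isomerases, fell in both genotypes (-0.83 and -0.44). P4hb (ENSMUSG00000025130, chromosome 11, 120451124 to 120464079), the archetypal protein disulfide isomerase and also a subunit of collagen prolyl hydroxylase, went the other way. It was at 1183, 1180.0 and 1206 CPM in unstimulated WT, 3683, 3936 and 4022 in stimulated WT, 991, 1059 and 1009.7 in unstimulated iNOS KO and 1449, 1676 and 1459 in stimulated iNOS KO libraries. Stimulated WT libraries were the highest by a wide margin, followed without overlap by stimulated iNOS KO libraries. Its log2 fold change was 1.71 ± 0.063 in WT and 0.58 ± 0.062 in iNOS KO cells, so the interaction was -1.12 (edgeR adjusted p = 2.79e-08).

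**Figure D2:**
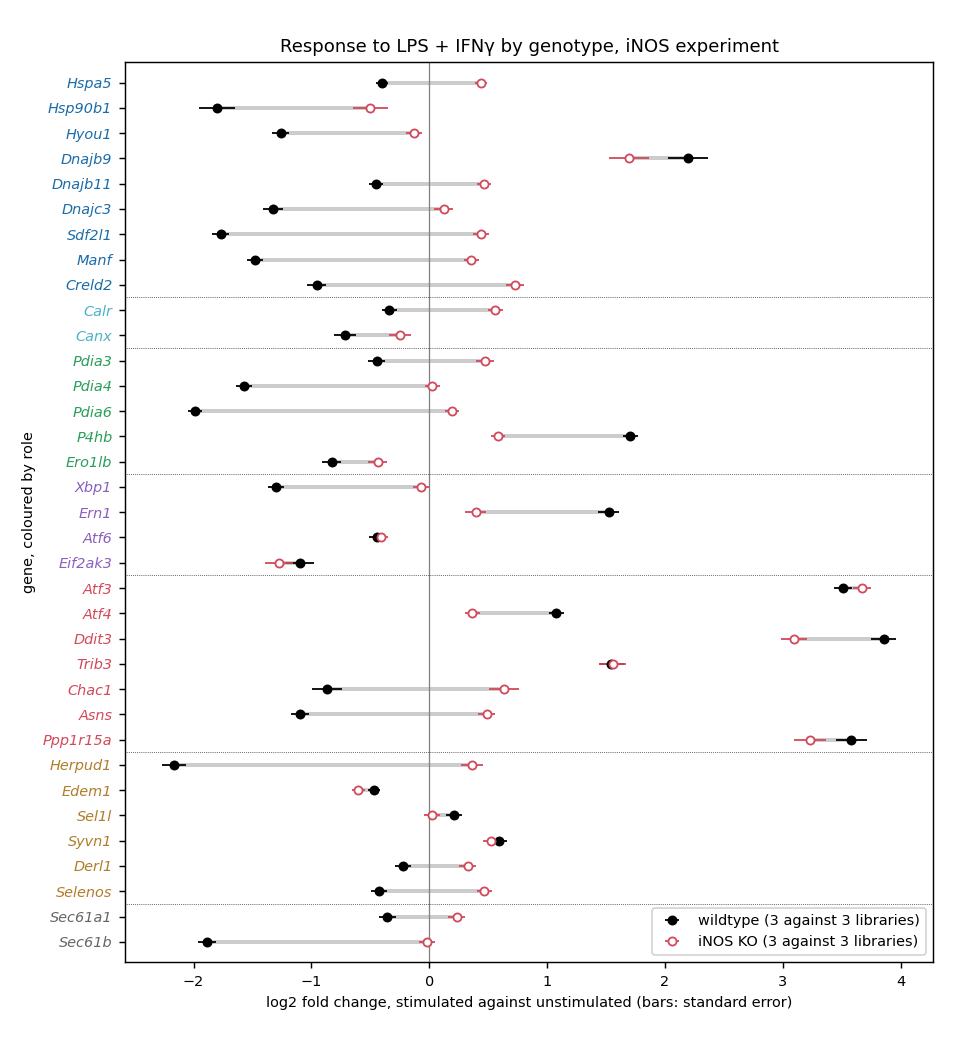
Log2 fold change of stimulation (horizontal axis) for 35 members, Derl3 left out, in WT (black points) and iNOS KO cells (red open points) of the iNOS experiment, with bars of 1 SE from edgeR and 3 libraries per group. Black points lie left of red points for most chaperones, lectins and oxidoreductases, right of them for P4hb, Ern1, Atf4 and Ddit3, and near them for Atf3 and Trib3.

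Among the genes of sensing, Xbp1 and Ern1 differed between the genotypes in opposite directions. Xbp1 (ENSMUSG00000020484, chromosome 11, 5470659 to 5475893), the transcription factor made active by IRE1α splicing, was at 182, 184 and 189 CPM in unstimulated WT, 73.7, 72.8 and 78.2 in stimulated WT, 157, 163 and 151 in unstimulated iNOS KO and 149, 161 and 139 in stimulated iNOS KO libraries. The stimulated WT libraries lay below all others, and the 2 iNOS KO groups overlapped. Xbp1 fell by 1.30 ± 0.068 on the log2 scale in WT cells and did not pass the test in iNOS KO cells (-0.07 ± 0.066, edgeR adjusted p = 0.403), with an interaction of 1.24 (adjusted p = 2.11e-08). Ern1 (ENSMUSG00000020715, chromosome 11, 106285476 to 106378678), which encodes IRE1α itself, was at 51.3, 48.6 and 47.1 CPM in unstimulated WT and 134, 142 and 146 in stimulated WT, against 46.6, 51.7 and 52.2 and 71.0, 55.9 and 70.3 in iNOS KO libraries. It rose in both genotypes, by 1.52 ± 0.089 and 0.39 ± 0.089, and less in iNOS KO cells (interaction -1.13, edgeR adjusted p = 1.76e-06). Eif2ak3 (PERK; ENSMUSG00000031668, chromosome 6, 70821499 to 70882229) was low and fell in both, from 23.6, 24.1 and 25.4 to 12.3, 12.96 and 8.87 CPM in WT and from 24.4, 22.9 and 22.4 to 10.6, 9.01 and 9.13 in iNOS KO libraries, with an interaction of -0.18 ± 0.17 (adjusted p = 0.46). Atf6 fell by 0.44 ± 0.065 and 0.41 ± 0.065, and its interaction of 0.03 did not pass the test (adjusted p = 0.853).

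The ISR genes rose with stimulation in both genotypes, with the exception of Chac1 and Asns in WT cells. Atf4 (ENSMUSG00000042406, chromosome 15, 80139385 to 80141742), the transcription factor at the centre of the ISR, was at 263, 273 and 282 CPM in unstimulated WT, 567, 586 and 572 in stimulated WT, 231, 221 and 236 in unstimulated iNOS KO and 293, 318 and 275 in stimulated iNOS KO libraries. Stimulated WT libraries were the highest, the others ranged from 221.5 to 318.3 CPM, and the log2 fold changes were 1.08 ± 0.063 and 0.36 ± 0.063 (interaction -0.71, edgeR adjusted p = 6.19e-06). Ddit3 (CHOP, the stress factor that dimerises with C/EBP proteins and ATF4; ENSMUSG00000025408, chromosome 10, 127126643 to 127132157) rose from 10.2, 11.4 and 11.1 to 155, 154 and 164 CPM in WT and from 9.49, 7.51 and 6.34 to 65.5, 69.2 and 65.0 in iNOS KO libraries. The rise was 3.86 ± 0.11 in WT, the largest of any member, and 3.10 ± 0.11 in iNOS KO cells, and the 4 groups did not overlap (interaction -0.76, adjusted p = 0.000632). Ddit3 shares 68 bases with Mars1 on the opposite strand, and without the strand setting of the counts reads there cannot be told apart.

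Atf3, Ppp1r15a and Trib3 rose in both genotypes from lower levels in iNOS KO cells, and the difference in their response did not pass the test. Atf3 (ENSMUSG00000026628, chromosome 1, 190902493 to 190950236), a repressor induced early by stress and by Toll-like receptor signals, went from 118, 118 and 121 to 1251, 1339 and 1478 CPM in WT and from 60.0, 54.2 and 55.8 to 676, 774 and 719 in iNOS KO libraries. Its log2 fold changes of 3.51 ± 0.077 and 3.67 ± 0.078 gave an interaction of 0.16 ± 0.10 that did not pass the test (edgeR adjusted p = 0.239), while its level was lower in iNOS KO libraries in both states. Ppp1r15a (GADD34, which dephosphorylates eIF2α; ENSMUSG00000040435, chromosome 7, 45172340 to 45175692) went from 23.0, 28.3 and 27.8 to 320.4, 318 and 308 CPM in WT and from 19.4, 16.7 and 18.2 to 157, 213 and 139.8 in iNOS KO libraries. Trib3, a pseudokinase that inhibits CHOP and AKT (ENSMUSG00000032715, chromosome 2, 152179342 to 152185952), went from 19.5, 17.2 and 19.6 to 55.7, 57.4 and 51.4 in WT and from 9.10, 9.70 and 10.8 to 26.6, 34.2 and 26.5 in iNOS KO libraries. The interactions were -0.35 ± 0.18 for Ppp1r15a (adjusted p = 0.145) and 0.01 ± 0.15 for Trib3 (adjusted p = 0.992). That of Ppp1r15a passed without stimulated iNOS KO replicate B (-0.55, edgeR adjusted p = 0.000126) and with no filter on counts (-0.35, adjusted p = 0.0204).

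The ATF4 targets Chac1 and Asns followed the chaperones. Chac1, which degrades glutathione (ENSMUSG00000027313, chromosome 2, 119181710 to 119184862), was at 10.9, 12.1 and 12.0 CPM in unstimulated and 6.09, 6.82 and 6.24 in stimulated WT libraries, and at 6.79, 6.02 and 6.73 and 9.71, 12.0 and 8.77 in unstimulated and stimulated iNOS KO libraries. Asns, asparagine synthetase, was at 158, 159 and 161 and 68.4, 76.2 and 78.6 CPM in WT and at 113, 125 and 117 and 152, 177 and 169 in iNOS KO libraries. Both fell in WT cells (-0.87 and -1.10) and rose in iNOS KO cells (0.64 and 0.49), and the groups compared did not overlap in any of these. The interactions were 1.50 ± 0.18 for Chac1 (edgeR adjusted p = 4.63e-06) and 1.58 ± 0.10 for Asns (adjusted p = 3.75e-09).

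Of the ERAD genes, 4 fell in stimulated WT cells and 2 rose. Herpud1 (ENSMUSG00000031770, chromosome 8, 95113066 to 95122005), an ER membrane protein that assembles the ubiquitin ligase complex of ERAD, fell the most of all members. It was at 83.6, 77.7 and 78.8 CPM in unstimulated WT, 14.9, 18.5 and 20.0 in stimulated WT, 59.8, 67.3 and 61.9 in unstimulated iNOS KO and 74.0, 88.1 and 81.5 in stimulated iNOS KO libraries. The stimulated WT libraries were set apart from all others, unstimulated iNOS KO libraries lay below unstimulated WT libraries, and the stimulated iNOS KO libraries overlapped the latter. Its log2 fold changes were -2.17 ± 0.10 in WT and 0.36 ± 0.093 in iNOS KO cells, and its interaction of 2.53 ± 0.14 was the highest of the members (edgeR adjusted p = 3.15e-10). Edem1 (ENSMUSG00000030104, chromosome 6, 108805602 to 108836317), a lectin that hands glycoproteins to ERAD, fell in both genotypes, from 513, 528 and 524 to 365, 385 and 380.3 CPM in WT and from 558, 583 and 572 to 372, 392 and 363 in iNOS KO libraries (interaction -0.14 ± 0.077, adjusted p = 0.197). That interaction passed without stimulated iNOS KO replicate B (-0.17, edgeR adjusted p = 0.0491) and with edgeR's own filter on counts, filterByExpr (-0.18, adjusted p = 0.0337). Sel1l (ENSMUSG00000020964, chromosome 12, 91772817 to 91815931), the scaffold of the ligase HRD1, was at 184, 190.4 and 188 and 205, 222 and 223 CPM in WT and at 168, 179 and 177 and 164, 191 and 178 in iNOS KO libraries. Its rise of 0.21 ± 0.066 in WT cells was called (adjusted p = 0.0111), and 0.02 ± 0.066 in iNOS KO cells was not (adjusted p = 0.8). Syvn1, which is HRD1 itself, rose by 0.59 and 0.53, whereas Derl1 and Selenos, parts of the retrotranslocation complex, fell in WT (-0.23 and -0.43) and rose in iNOS KO cells (0.32 and 0.47).

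Both SEC61 subunits of the channel by which proteins enter the ER fell in stimulated WT cells. Sec61b (ENSMUSG00000053317, chromosome 4, 47474658 to 47483242) was at 78.0, 73.9 and 81.0 CPM in unstimulated WT, 18.8, 22.1 and 21.9 in stimulated WT, 76.5, 74.1 and 74.6 in unstimulated iNOS KO and 71.6, 75.1 and 75.3 in stimulated iNOS KO libraries. All but the stimulated WT libraries lay between 71.6 and 81.0 CPM, and the interaction was 1.87 ± 0.10 (edgeR adjusted p = 4.52e-10). Sec61a1, the pore subunit, had log2 fold changes of -0.36 and 0.23, the latter a call lost without unstimulated iNOS KO replicate A (0.20, edgeR adjusted p = 0.0583).

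**Figure D3:**
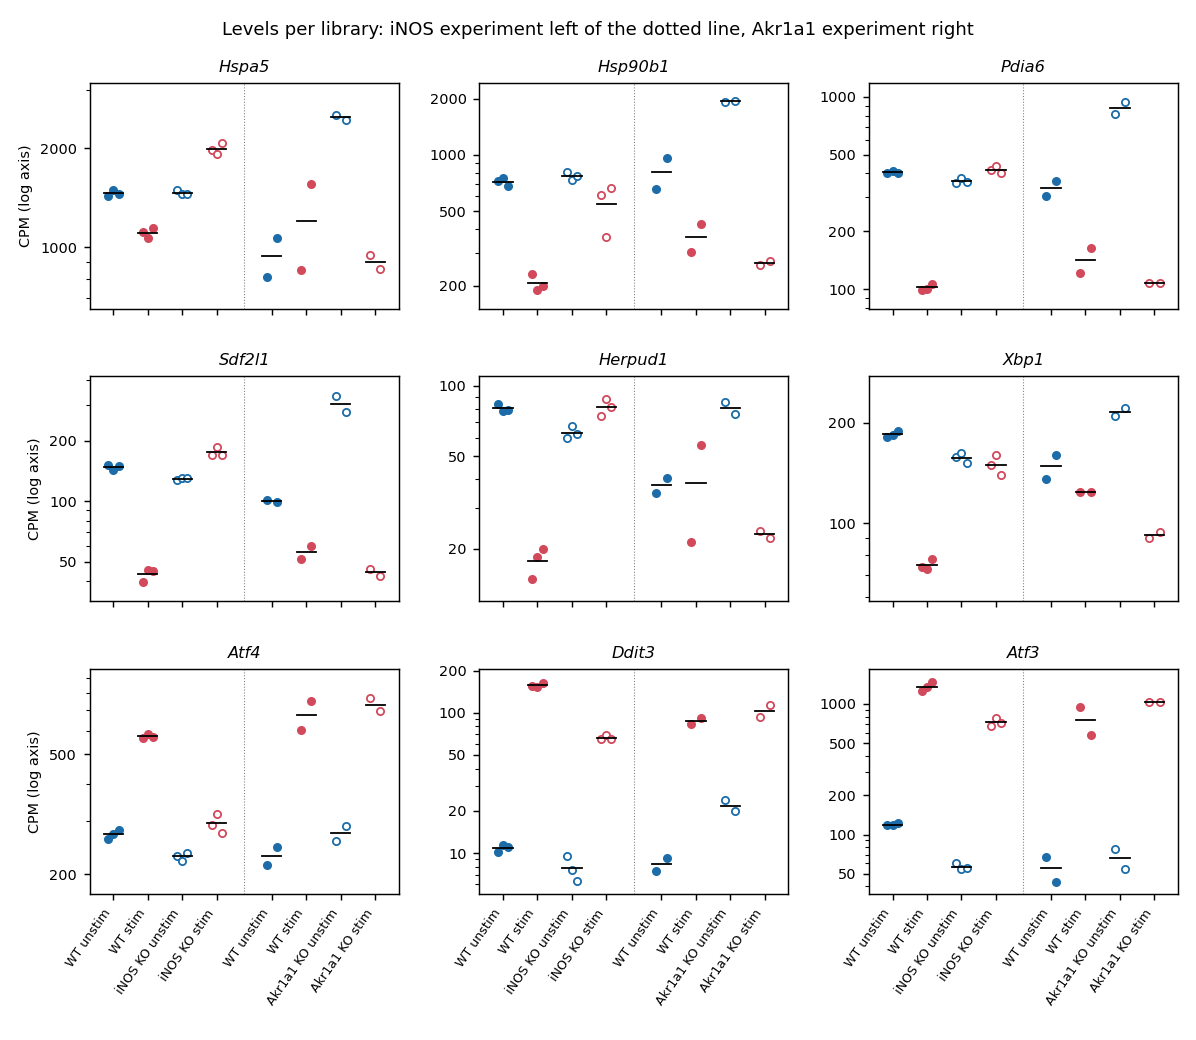
CPM of 9 members (log axis) in each library of the 8 groups, with filled points for WT, open points for KO, blue for unstimulated and red for stimulated, and a bar at the group mean. In the iNOS experiment Pdia6, Sdf2l1, Herpud1 and Xbp1 are lowest in stimulated WT libraries, in the Akr1a1 experiment the chaperones are highest in unstimulated Akr1a1 KO libraries, and Ddit3 and Atf3 are high in all stimulated libraries.

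Before stimulation the genotypes of the iNOS experiment differed less, and mainly in the ISR. No member was higher in unstimulated iNOS KO than in unstimulated WT cells and 10 were lower by edgeR's quasi-likelihood test, where 1.88% of all genes were higher and 4.09% lower (5.98% in all). At an unadjusted p under 0.05, 2 members were higher, where 6.16% of all genes were. DESeq2 called 0 members higher, and 8.58% of all genes it tested either way. These 10 were all 7 ISR genes with P4hb, Xbp1 and Herpud1. Atf3 was lower by a log2 difference of -1.07 ± 0.073 (edgeR adjusted p = 7.45e-08) and Trib3 of -0.93 ± 0.11 (adjusted p = 5.01e-05). Chac1 was lower by a difference of -0.84 ± 0.12 (edgeR adjusted p = 0.000319) and Asns of -0.43 ± 0.073 (adjusted p = 0.00127). In these 4 genes every iNOS KO library lay below every WT library, as in 17.7% of all genes, and they were the ones still called whichever library was left out. The count fell to 4 without replicate B or C of unstimulated WT or replicate C of unstimulated iNOS KO, to 5 without replicate B and to 6 without replicate A of the latter. In these settings 3.70 to 4.59% of all genes were called. The count of members rose to 14 without stimulated iNOS KO replicate B, with Atf6 higher (0.18, edgeR adjusted p = 0.0269) and 13 lower (12.8% of all genes called). Fitted on the 2 unstimulated groups alone it was 15, with Atf6 (0.20, edgeR adjusted p = 0.00211) and Edem1 (0.16, adjusted p = 0.00422) higher and Sdf2l1, Pdia6 and Derl1 among the 13 lower (16.7% of all genes called). The other 6 had smaller differences, from -0.54 for Ppp1r15a to -0.22 for P4hb, and no chaperone, lectin or translocon subunit was called when all 4 groups were fitted together.

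The members were also grouped by promoter motif, as a description, and the ranges of the groups overlapped widely. The 11 members with an ERSE or ERSE-II and no CARE had a median log2 difference of 0.85 between stimulated iNOS KO and stimulated WT cells (range -1.16 to 2.03). The lower end of that range is Derl3, which had 3, 5 and 3 counts in stimulated WT and 2, 2 and 1 in stimulated iNOS KO libraries. The 4 with a CARE alone had -0.12 (-0.92 to 1.16), the 15 with none of the motifs -0.25 (-1.34 to 2.01), and Herpud1, which has both, 2.19. For the interaction the medians were 0.90 (-0.06 to 2.18), 0.83 (0.01 to 1.58) and -0.18 (-1.13 to 2.21), with 2.53 for Herpud1. For stimulation in iNOS KO cells they were 0.44, 1.10 and 0.39. A match of letters is not evidence of binding, and the share of each motif in all promoters is given above.

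Outside the 36, 107 of 109 other genes of these pathways were tested in 7 lists. In stimulated against unstimulated WT cells 42 rose and 50 fell, where 32.4% of all genes rose and 28.5% fell. In iNOS KO cells after stimulation 48 stood above and 30 below WT cells (24.2% of all genes each way). The counts of the single lists below have the same shares beside them. Genes of amino acid transport and synthesis under ATF4 stood out in count, with 2 of 17 up and 15 down in WT cells (median log2 fold change -1.48) and 14 above and 3 below WT in stimulated iNOS KO cells (median 1.17). Shmt2, mitochondrial serine hydroxymethyltransferase, fell by 3.68 ± 0.089 on the log2 scale in WT cells and Phgdh, which starts serine synthesis, fell by 3.29 ± 0.10. Cth, which makes cysteine from cystathionine, had an interaction of 4.04 ± 0.18 (edgeR adjusted p = 3.45e-11). Of 12 cytosolic aminoacyl-tRNA synthetases 3 rose and 8 fell in WT cells, and after stimulation 8 stood above and 1 below WT in iNOS KO cells. The 16 other ERAD genes went the other way, with 12 up and 2 down in WT cells and 1 higher and 9 lower in stimulated iNOS KO cells. Of 22 other ER folding genes 8 rose and 10 fell in WT cells. Among them Ero1l, the second ER oxidase, rose by 2.81 ± 0.075 and Fkbp11, a prolyl isomerase of secretory cells, fell by 4.05 ± 0.19. Wfs1, a UPR regulator, rose by 3.47 ± 0.098 and Nupr1, an ISR regulator, by 3.18 ± 0.098. In the unstimulated state 1 of the 107 was higher and 16 were lower in iNOS KO cells (1.88% and 4.09% of all genes). Of the latter, 8 were in the amino acid list.

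In the Akr1a1 experiment, the response to stimulation averaged over WT and Akr1a1 KO cells is not the interaction behind the list but rests on the same 8 libraries. It takes in the unstimulated Akr1a1 KO libraries, whose levels also shape that interaction. The calls below are therefore no separate support for a response of these members. By edgeR's quasi-likelihood test 11 members rose and 19 fell, where 26.0% of 19569 genes rose and 25.4% fell (51.4% in all). The median log2 fold change was -0.53 for the members. Of the 9 chaperones 8 fell, both lectins fell, 4 of 5 oxidoreductases fell, and 5 of 7 ISR genes rose. The genotypes contributed unequally to this average, and their own values are given without a test because the list rests on their difference. In WT cells 20 members had a positive and 16 a negative log2 fold change with a median of 0.07, and in Akr1a1 KO cells 12 were positive and 24 negative with a median of -0.91 (medians over all genes -0.03 and 0.02). The 9 chaperones had a median of -0.21 in WT and of -1.91 in Akr1a1 KO cells. The averages were -2.19 ± 0.11 for Sec61b, -2.13 ± 0.13 for Pdia6, -2.01 ± 0.16 for Hsp90b1 and -1.82 ± 0.10 for Sdf2l1, and on the other side 3.88 ± 0.23 for Atf3, 3.32 ± 0.13 for Ppp1r15a and 2.81 ± 0.13 for Ddit3. Hspa5 had a smaller average of -0.55 ± 0.19 (edgeR adjusted p = 0.0401), a call lost without unstimulated WT replicate B (-0.45, adjusted p = 0.128) and without any of the 4 Akr1a1 KO libraries (adjusted p from 0.0873 to 0.133). The calls of Calr (-0.57) and Herpud1 (-0.88) were lost without unstimulated WT replicate B, unstimulated Akr1a1 KO replicate A or stimulated Akr1a1 KO replicate B, and that of Herpud1 also without stimulated Akr1a1 KO replicate A (adjusted p from 0.0502 to 0.0785). Derl1 (0.23) lost its call without either unstimulated library of each genotype and without stimulated Akr1a1 KO replicate B (adjusted p from 0.0539 to 0.124). Without both unstimulated replicate B libraries, whose titles conflict with their treatment field, 23 members were called (38.8% of all genes). Hspa5 (adjusted p = 0.213), Calr (0.0725), Ero1lb (0.0540), Atf6 (0.0784), Herpud1 (0.104), Syvn1 (0.0558) and Derl1 (0.186) were then not called.

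The libraries show how unlike the parts of that average were. Hspa5 was at 815 and 1064 CPM in the unstimulated WT libraries, 852 and 1554 in stimulated WT, 2519.8 and 2439 before and 948 and 861 after stimulation of Akr1a1 KO cells. Both unstimulated Akr1a1 KO libraries lay above all others, and the stimulated WT libraries differed between themselves by more than the unstimulated ones. Pdia6 was at 305 and 366 CPM in unstimulated WT, 122 and 163 in stimulated WT, 812 and 943 before and 108 and 107 after stimulation of Akr1a1 KO cells, and Sec61b at 52.7 and 54.0, 13.1 and 14.97, 65.0 and 56.8 and 11.7 and 10.3 in the same order. For both, each stimulated library was below each unstimulated library. Edem1 was at 327 and 372 and 109 and 127 CPM in unstimulated and stimulated WT and at 355 and 323 and 88.8 and 117 in Akr1a1 KO libraries, a fall of 1.64 ± 0.12 (edgeR adjusted p = 9.63e-06) in which the genotypes overlapped within each state. P4hb was at 1244 and 1632 CPM in unstimulated and 1867 and 4091 in stimulated WT, and at 2449 and 2109 and 2511 and 2591 in Akr1a1 KO libraries, and its average of 0.61 ± 0.23 did not pass the test (adjusted p = 0.0576). Other settings called it, among them DESeq2 (0.66, DESeq2 adjusted p = 0.00727) and edgeR with no filter on counts (0.59, adjusted p = 3.32e-05).

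Of the 7 ISR genes, Atf4, Ddit3, Atf3, Ppp1r15a and Trib3 were higher in each stimulated than in each unstimulated library of both RAW264.7 genotypes, whereas Chac1 and Asns were higher after stimulation in WT and lower in Akr1a1 KO libraries. Atf4 was at 215 and 246 CPM in unstimulated WT, 601 and 750.5 in stimulated WT, 259 and 289.7 before and 768 and 695 after stimulation of Akr1a1 KO cells. Atf3 went from 67.2 and 43.5 to 939.6 and 578 CPM in WT and from 77.3 and 54.2 to 1042 and 1038 in Akr1a1 KO libraries, and Ppp1r15a from 20.6 and 20.3 to 178 and 176 and from 16.2 and 16.6 to 223 and 155. In all 3 genes every stimulated library exceeded every unstimulated library. Trib3 went from 5.81 and 6.39 to 30.2 and 56.5 CPM in WT and from 16.7 and 18.4 to 45.0 and 54.8 in Akr1a1 KO libraries. Chac1 was at 2.69 and 3.14 and 6.40 and 9.68 CPM in unstimulated and stimulated WT and at 7.07 and 8.73 and 5.43 and 6.15 in Akr1a1 KO libraries. Its average was not called by edgeR (0.50 ± 0.21, edgeR adjusted p = 0.0739), though DESeq2 called it (0.56, DESeq2 adjusted p = 0.0453). Asns was at 89.6 and 83.0 and 102 and 109.6 CPM in unstimulated and stimulated WT and at 148 and 147 and 94.3 and 89.0 in Akr1a1 KO libraries, and its average was not called either (-0.20 ± 0.077, adjusted p = 0.0626). Ern1 went from 34.8 and 35.9 to 79.9 and 82.1 CPM in WT and from 52.2 and 43.5 to 99.2 and 111 in Akr1a1 KO libraries, while Eif2ak3 went from 33.8 and 31.1 to 24.3 and 21.1 and from 37.5 and 38.8 to 23.4 and 20.1.

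The genotype effect averaged over both states gave 4 members higher in Akr1a1 KO cells and 0 lower by edgeR's quasi-likelihood test, where 0.434% of all genes were higher and 0.751% lower (1.19% in all). This average takes in the unstimulated Akr1a1 KO libraries, whose levels also shape the interaction behind the list. Its calls are therefore no separate support for a difference between the genotypes in these members. The methods speak of independent clonal replicates in each group, and the fit has no term for clone. If the same clones served in both states, the p-values of this average count each clone more than once. At an unadjusted p under 0.05, 21 members were higher and 0 lower, where 5.52% of all genes were higher and 7.07% lower. DESeq2 called 14 members higher and 0 lower, and 4.95% of all genes it tested either way. The 4 were Ddit3 (0.80 ± 0.12, edgeR adjusted p = 0.0212), Sdf2l1 (0.64 ± 0.097, adjusted p = 0.0227), Pdia4 (0.57 ± 0.10, adjusted p = 0.0385) and Sel1l (0.57 ± 0.10, adjusted p = 0.0414). Sel1l was at 132 and 145 CPM in unstimulated WT, 145 and 145 in stimulated WT, 231 and 284 before and 159 and 184 after stimulation of Akr1a1 KO cells, so that all 4 Akr1a1 KO libraries exceeded all 4 WT libraries. Ddit3 went from 7.41 and 9.24 to 82.8 and 92.1 CPM in WT and from 23.8 and 19.8 to 92.7 and 113 in Akr1a1 KO libraries, and Sdf2l1 from 101.4 and 99.4 to 51.7 and 59.9 and from 336 and 277 to 45.8 and 42.6, with Akr1a1 KO libraries above WT libraries before stimulation and, for Sdf2l1, below them after it. Pdia4 had the same order, going from 118 and 126 to 68.7 and 87.7 CPM in WT and from 376 and 349 to 56.7 and 60.0 in Akr1a1 KO libraries, above WT libraries before and below them after stimulation. None of the 4 calls held whichever library was left out. The count of members called was 0 without replicate A or B of unstimulated WT, replicate A of unstimulated Akr1a1 KO or replicate B of stimulated Akr1a1 KO, 1 without replicate B of unstimulated or replicate A of stimulated Akr1a1 KO, and 13 without replicate B of stimulated WT. Without both unstimulated replicate B libraries, whose titles conflict with their treatment field, it was 0.

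The contrasts that chose the list are given as values only. In unstimulated cells, 32 of the 36 members were higher in both Akr1a1 KO libraries than in both WT libraries and 1 was lower, where 17.8% of all genes were higher and 23.9% lower in this way. The log2 differences were 1.61 for Sdf2l1, 1.57 for Pdia4, 1.52 for Trib3, 1.49 for Creld2, 1.40 for Hspa5, 1.39 for Pdia6 and 1.37 for Ddit3. In stimulated cells 5 members were higher and 16 lower in both Akr1a1 KO libraries (19.9% and 18.6% of all genes), with log2 differences between -0.74 for Herpud1 and 0.48 for Derl3. Herpud1 was at 34.7 and 40.5 CPM in unstimulated WT, 21.4 and 55.7 in stimulated WT, 84.9 and 75.5 before and 24.0 and 22.2 after stimulation of Akr1a1 KO cells, and Xbp1 at 136 and 159.9, 124 and 124, 209.8 and 221 and 90.3 and 93.9. Hsp90b1 was at 659 and 965, 302 and 428, 1927 and 1933 and 259 and 269.5 CPM in the same groups. In each of these 3 genes the unstimulated Akr1a1 KO libraries were the highest of all 8. The interaction, the response in Akr1a1 KO minus that in WT cells, had a median of -0.98 over the members, was negative for 33 and positive for 3, and ran from -2.00 for Pdia4 to 0.41 for Ppp1r15a.

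**Figure D4:**
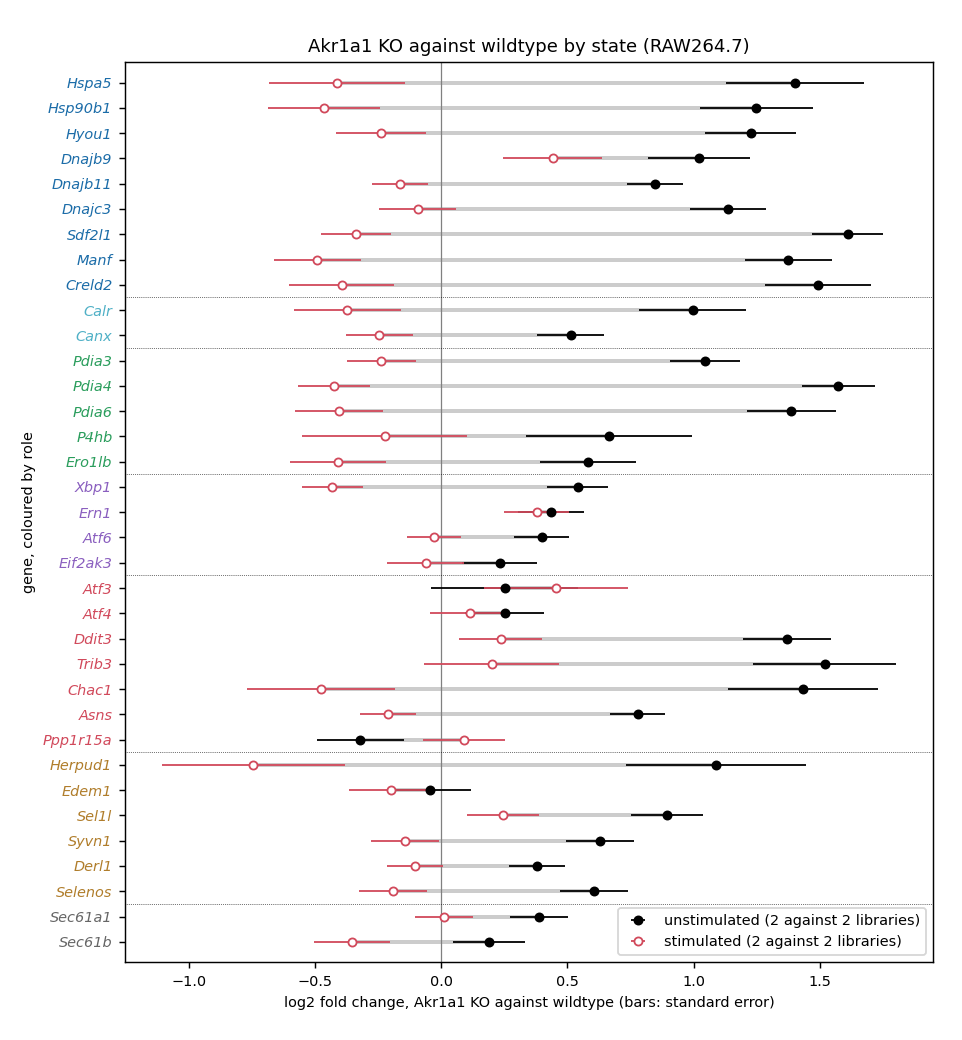
Log2 difference of Akr1a1 KO from WT RAW264.7 cells (horizontal axis) for the members without stimulation (black points) and after it (red open points), with bars of 1 SE from edgeR and 2 libraries per group. Black points of chaperones, lectins and oxidoreductases lie right of 0, with Sdf2l1 at 1.61 and Pdia4 at 1.57, and most of their red points lie left of 0, except Dnajb9 at 0.44, while red points reach down to -0.74 for Herpud1.

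The experiments share no libraries but were normalised separately, and their responses to stimulation can be set side by side. Across 35 members (Derl3 left out), the log2 fold changes in WT cells of the iNOS experiment and the averaged response in RAW264.7 cells had a Pearson r of 0.924 and a Spearman rho of 0.874, where that average includes the Akr1a1 KO cells on which the list rests. Between WT cells of both experiments the values were 0.888 and 0.839, and between iNOS KO cells and the RAW264.7 average 0.802 and 0.605. The genes are co-regulated and were chosen with these data known, so no p is given. By these calls 19 members fell and 8 rose in both experiments. The share of all genes called alike in both was not computed, so these counts cannot be set against it. Either way, 60.9% of all genes were called in WT cells of the iNOS experiment and 51.4% in the RAW264.7 average. Atf6, Derl1 and Selenos fell in WT cells of the iNOS experiment (-0.44, -0.23 and -0.43) and rose in the RAW264.7 average (0.36, 0.23 and 0.60). In WT RAW264.7 libraries each rose without overlap. In Akr1a1 KO libraries Atf6 went from 224 and 214 to 238 and 246 CPM and Selenos from 60.0 and 54.9 to 71.2 and 61.2. Derl1 overlapped there, with 149 and 142 before and 139 and 149 after stimulation. As given above, the calls of Atf6 and Derl1 in the average were lost in some settings. Of the other pathway genes in RAW264.7 cells 35 of 107 rose and 45 fell on average, where 26.0% of all genes rose and 25.4% fell. Among them were 2 up and 13 down of the 17 amino acid genes and 10 up and 1 down of the 16 other ERAD genes. Phgdh fell by 3.52 ± 0.22, Shmt2 fell by 3.07 ± 0.11 and Fkbp11 fell by 3.95 ± 0.20 on the log2 scale, and Cebpb, a partner of CHOP, rose by 2.15 ± 0.13. For genotype averaged over both states 0 of the 107 were called either way by edgeR, with 20 higher and 4 lower at an unadjusted p under 0.05 and 4 higher and 1 lower by DESeq2. The shares of all genes for these counts are given above, beside those of the members.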

How the data were processed

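RNA was measured by poly(A)-selected RNA-seq in 20 libraries. Per the labels and the methods of the study, bases were called with CASAVA and reads mapped by STAR against mm10. The deposited tables hold the authors' gene counts as whole numbers, without normalization. The counter, annotation and strand setting are not given in the sources used here. The tables name no build for their positions, and 2 of 36 members shared their start with the GENCODE annotation of GRCm38, so positions are given as listed.

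Members were matched by gene name, and Ero1lb, listed as Ero1b, by identifier. A second row named Ddit3 with 0 counts was left out. Genes summing to 10 counts or more over an experiment were scaled by TMM and fitted with 1 mean per group in each experiment by edgeR 4.0.16 (R 4.3.3, quasi-likelihood F test, Benjamini-Hochberg adjustment over 18691 and 19569 genes, threshold 0.05, no fold limit). SEs are the log2 fold change divided by the square root of F. DESeq2 1.42.0 was an alternative. The members and lists were chosen with earlier results of these data known. All 36 members may be named. Values per library are given for Hspa5, Hsp90b1, Xbp1, Atf4 and Ddit3 and for the 3 called members with the largest change each way per comparison whose groups do not overlap, and of the other pathway lists up to 3 called genes each way were named per comparison. Per-library values of Asns, Calr and Canx, which this rule does not ask for, were added. Motifs were searched in RefSeq promoter windows of 300 bases. The scripts were tested on simulated counts. Depth limits Derl3, which had at most 1.0 CPM.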

Additional observations from a re-analysis of the deposited data

Results flagged for a closer look

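The response to stimulation differed between iNOS KO and WT cells of the iNOS experiment for 26 of the 36 members, by the test of the interaction itself in edgeR with Benjamini-Hochberg adjustment, where 35.4% of all tested genes passed. The values are the log2 fold change of stimulation in iNOS KO cells minus that in WT cells. Among the chaperones they were 0.84 for Hspa5, 1.30 for Hsp90b1, 1.13 for Hyou1, 0.92 for Dnajb11, 1.45 for Dnajc3, 2.21 for Sdf2l1, 1.84 for Manf and 1.68 for Creld2. The lectins had 0.90 (Calr) and 0.47 (Canx), and the oxidoreductases 0.92 (Pdia3), 1.60 (Pdia4), 2.18 (Pdia6), 0.39 (Ero1lb) and -1.12 (P4hb). Xbp1 had 1.24 and Ern1 -1.13. The ISR genes split, with -0.71 for Atf4 and -0.76 for Ddit3 against 1.50 for Chac1 and 1.58 for Asns. The ERAD genes Herpud1, Derl1 and Selenos had 2.53, 0.55 and 0.90, and the translocon subunits Sec61a1 and Sec61b 0.59 and 1.87. Without stimulated iNOS KO replicate A, Canx (0.39, adjusted p = 0.0548) and Ero1lb (0.30, adjusted p = 0.0582) no longer passed, and the other 24 passed without any 1 of the 12 libraries. Without stimulated iNOS KO replicate B, Ppp1r15a (-0.55), Edem1 (-0.17) and Sel1l (-0.24) passed as well. Edem1 (-0.18) and Sel1l (-0.23) also passed with all libraries under edgeR's own filter on counts.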

How the results depend on the processing

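With a limit of 1 on the absolute log2 fold change the members called were 20 for stimulation in WT and 6 in iNOS KO cells, 14 for stimulated and 1 for unstimulated iNOS KO against WT, 15 for the interaction, 15 for stimulation in RAW264.7 cells and 0 for genotype averaged over both states (35.4, 22.8, 19.6, 1.66, 15.0, 31.3 and 0.884% of all genes). The last was the least stable count, 4 as reported, 14 with DESeq2, 15 with no filter on counts and 0 without both unstimulated libraries of conflicting labels, where 1.19, 4.95, 4.93 and 0.156% of all genes were called. The cause was not tested. Leaving out 1 library in turn gave 35 to 35, 28 to 30, 31 to 33, 4 to 14, 24 to 29, 26 to 32 and 0 to 13 members in the same order, and a median Akr1a1 interaction of -1.05 to -0.91. The replicate letters did not pair the libraries consistently, with same-letter correlations from -0.52 to 0.50 in the iNOS experiment. In RAW264.7 cells they were 0.44 between unstimulated and stimulated WT and 0.10 between the states of Akr1a1 KO libraries. Between unstimulated WT and Akr1a1 KO libraries the value was -0.17. With the letter as a replicate block the counts were 35, 29, 33, 9, 26, 30 and 5. For genotype averaged over both states the count was 8 with crossed letters, a setting chosen after seeing the data. With the block nested in genotype, that contrast sets replicate A of Akr1a1 KO against replicate A of WT cells. It is then no genotype average, and Hspa5 had 0.89 there against 0.49 with no filter on counts. The totals over single genes and settings below include this setting. Over single genes and settings, 4989 of 5211 values kept direction and side of the threshold, 112 fell below it, 85 passed it, 25 untested values moved by more than the spread, and none reversed.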

Other observations

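Replicate libraries of the members were closest in unstimulated WT cells of the iNOS experiment, with a median coefficient of variation of 2.92%, and farthest apart in stimulated WT RAW264.7 cells, with 13.7% over 2 libraries. In the latter group Herpud1 was at 21.4 and 55.7 CPM, P4hb at 1867 and 4091, Hspa5 at 852 and 1554 and Trib3 at 30.2 and 56.5, with replicate B higher each time, while Atf3 was at 939.6 and 577.8. Hsp90b1 (301.6 and 428.0), Sdf2l1 (51.7 and 59.9) and Xbp1 (124.3 and 124.1) lay closer.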
